A study of Gallus gallus with 24 samples.

Results

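The comparison described here set DF1 cells with a knockdown of IRF9 against mock cells after 1 h of poly(I:C), with 3 libraries in each group. Its members were all genes with a mean of at least 1 CPM (read counts scaled to a common library total) in either group, which held for 11667 of the 25466 genes in the files. Of these, 184 reached that level only in mock cells, 205 only in knockdown cells and 11278 in both, and all 11667 passed the filter on low counts and were tested. The last genes inside and the first genes outside that limit were unnamed loci and TM4SF19, which was just outside at 0.949 CPM in mock and 0.999 CPM in knockdown cells.

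DF1 is a spontaneously immortalised line of chicken embryonic fibroblasts, and poly(I:C) is a synthetic double-stranded RNA that stands in for viral RNA. The study sequenced poly(A)-selected RNA in 24 libraries: at 0 h, 30 min, 1 h and 6 h there were 3 of mock and 3 of knockdown cells. The labels give the mock cells as wild type and name poly(I:C) for every sample, those of 0 h included, so both groups of 1 h carried the same treatment and differed in the knockdown. The sources used here give neither how the knockdown was made nor which sequence it was designed against, and unstimulated cells of 1 h were not analysed here. The labels do not say whether replicates were separate cultures. All p-values therefore measure no more than the spread between these libraries, which may be technical. In bulk RNA, fewer cells of a type and less RNA per cell cannot be told apart.

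In mammals, IRF9 is the DNA-binding subunit of ISGF3, the complex it forms with phosphorylated STAT proteins downstream of the type I interferon receptor. ISGF3 binds interferon-stimulated response elements and turns on antiviral genes. Cells first sense double-stranded RNA through receptors such as TLR3 and MDA5 (gene IFIH1), and interferon must then be made and released before ISGF3 forms, so at an early time the primary responses of NF-kB, IRF and immediate early genes are usually seen ahead of the interferon-stimulated genes.

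The 6 libraries of 1 h held 13416870 to 15607667 counts in genes. Fibroblast genes were abundant in all 6: VIM, the intermediate filament vimentin, lay between 1660 and 1870 CPM, the fibronectin gene FN1 between 1710 and 2520 CPM and the collagen gene COL1A1 between 828 and 1250 CPM, whereas PDGFRA lay at 0.216 to 1.04 CPM. Of the markers of other cell types in the files, those under 1 CPM in both groups were all 10 muscle genes, all 6 erythroid genes, 9 of 11 epithelial, 7 of 8 endothelial, 5 of 8 leukocyte and 6 of 9 neural genes; KRT8, KRT18, CLDN4 (epithelial) and LCP1 (leukocyte) were at 0. Other markers were present. Of the neural list, the intermediate filament gene NES lay at 321 to 424 CPM, the tubulin gene TUBB3 at 255 to 291 CPM and GFAP at 1.11 to 4.64 CPM. Of the leukocyte list, the T-cell gene CD3E lay at 9.22 to 13.7 CPM, CD74 at 5.90 to 9.03 CPM and PTPRC at 1.02 to 2.36 CPM. The epithelial factor GRHL2 lay at 6.73 to 9.48 CPM, KRT7 at 0.966 to 2.35 CPM and the endothelial gene PECAM1 at 1.03 to 3.46 CPM. The groups overlapped in each, and the summed level ran from 616 to 680 CPM in mock and 596 to 658 CPM in knockdown cells for the neural list, and from 19.3 to 22.0 CPM and 19.8 to 24.4 CPM for the leukocyte list. The 2 epithelial, 3 endothelial, 4 leukocyte and 3 neural markers tested had medians of 0.16, 0.58, 0.10 and 0.03 (log2), and of 0.24, 0.48, 0.19 and -0.0067 without mock replicate 2. 1 library stood apart: on the first principal component, which held 48% of the variance, mock replicate 2 lay at 29.0, knockdown replicate 3 at 9.42 and the other 4 libraries between -14.3 and 2.00. Of the counts, the heat shock protein gene HSPA2 took 0.772% in mock replicate 2, 1.49% in knockdown replicate 3 and 2.24 to 3.23% in the others. Where leaving out mock replicate 2 moved a gene's printed difference between genotypes at 1 h by over 1.5 times, the value without it is given beside it.

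The targeted gene was examined before any other, as a check of the labels. IRF9 (gene identifier 395243) spans chromosome 20 from 10406021 to 10408887 in build GRCg7b, and IRF10 is given there as a synonym. Whether this gene is the counterpart of mammalian IRF9 and shares its role in ISGF3 was not tested. The mock libraries held 25.0, 28.8 and 27.1 CPM and the knockdown libraries 12.2, 14.0 and 19.8 CPM. The groups did not overlap, and knockdown replicate 3 was nearest to the mock cells. The means were 27 ± 1.88 CPM in mock and 15.3 ± 3.96 CPM in knockdown cells (SD, n = 3), so the knockdown cells kept 56.8% of the mock level. The difference was -0.81 on the log2 scale (SE 0.18, 95% interval -1.19 to -0.44). For this gene alone, the unadjusted edgeR p was 0.00015. The difference did not pass the threshold over all 13000 genes tested (edgeR adjusted p = 0.975, and 0.0679 to 1 over 14 alternatives). The exact two-sided permutation p was 0.1, the smallest that 3 against 3 libraries allow.

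**Figure D1:**
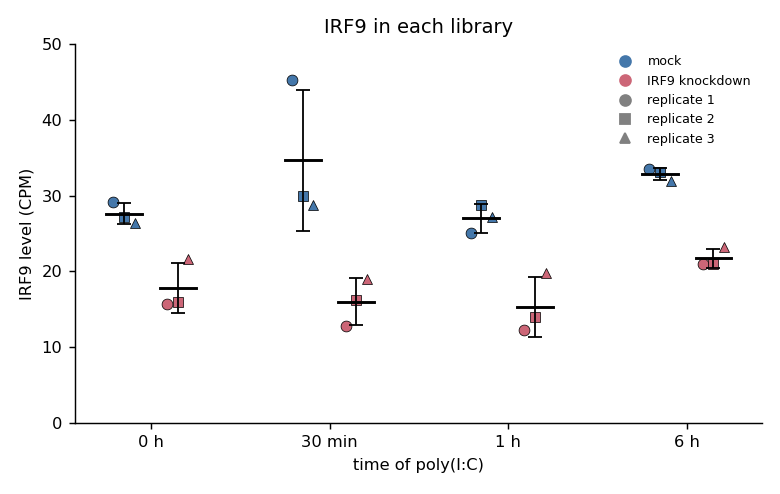
IRF9 level in CPM (vertical axis) in each of the 24 libraries by time of poly(I:C); colour gives the genotype, marker shape the replicate number, and black bars the mean ± SD of 3 libraries. At 1 h the mock libraries sit at 25.0 to 28.8 CPM and the knockdown libraries at 12.2 to 19.8 CPM, and the groups are also apart at the other 3 times.

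The libraries of the other 3 times, which share no library with the 1 h comparison, give the same quantity. There the knockdown cells held 64.5% of the mock level at 0 h, 46.2% at 30 min and 66.1% at 6 h, and the mean difference over these times was -0.78 (log2). IRF9 was the 1 gene of 13000 called over those times by edgeR (0.00769%). That test took the libraries of the 3 times as independent. Deviations of same-numbered mock libraries correlated between 1 h and the other times. The values were 0.125 to 0.399 for replicate 1, 0.53 to 0.636 for replicate 2 and 0.306 to 0.325 for replicate 3. In knockdown cells they ran from -0.0477 to 0.27. The p-values over those times may therefore be too small. Those of tests that set 1 h against 0 h may be too large for the same reason. The difference of 1 h was not distinguishable from that of 0 h (interaction -0.18, SE 0.25, edgeR adjusted p = 1), and IRF9 itself did not pass the test from 0 h to 1 h in mock cells (-0.03, SE 0.18) or in knockdown cells (-0.21, SE 0.18).

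Beyond the targeted gene, the question at 1 h was which genes differed between the genotypes. None was called: edgeR called 0 of 13000 genes at an adjusted p under 0.05 (0%), with 302 at an unadjusted p under 0.05 (2.32%), 144 of them higher (1.11%) and 158 lower (1.22%) in knockdown cells. DESeq2 called 0 with 338 at an unadjusted p under 0.05, and limma voom 0 with 295. Among the 11667 members, 258 had an unadjusted p under 0.05 (2.21%). The knockdown libraries lay wholly above the mock libraries for 340 members (2.91%) and wholly below them for 406 (3.48%). Over all 13000 genes tested these counts were 398 and 439. For 3 against 3 libraries with no difference, the exact probability of no overlap either way is 0.1. A gene without overlap is therefore not marked out by that alone. The median difference of all members was 0.00021 (log2). The scaling between libraries sets the centre of the differences near 0, so this value says nothing about the knockdown.

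The intervals say what size of difference the libraries could have held. Of the 9538 members at 5 CPM or more in the higher group, 98.5% had a 95% interval that stayed within 2-fold either way, and 0 had a fitted difference past 2-fold. The interval is that of each gene alone, not adjusted over genes. It rests on the spread over all 24 libraries, which the fit took as independent, so it may be too narrow. Its median half-width was 0.214 (log2) at 100 CPM or more, 0.278 at 20 to 100 CPM and 0.425 at 5 to 20 CPM. At 1 to 5 CPM it was 0.846, and 36.1% of the 2129 members there had intervals within 2-fold. In that range 86 fitted differences passed 2-fold, 47 higher and 39 lower.

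**Figure D2:**
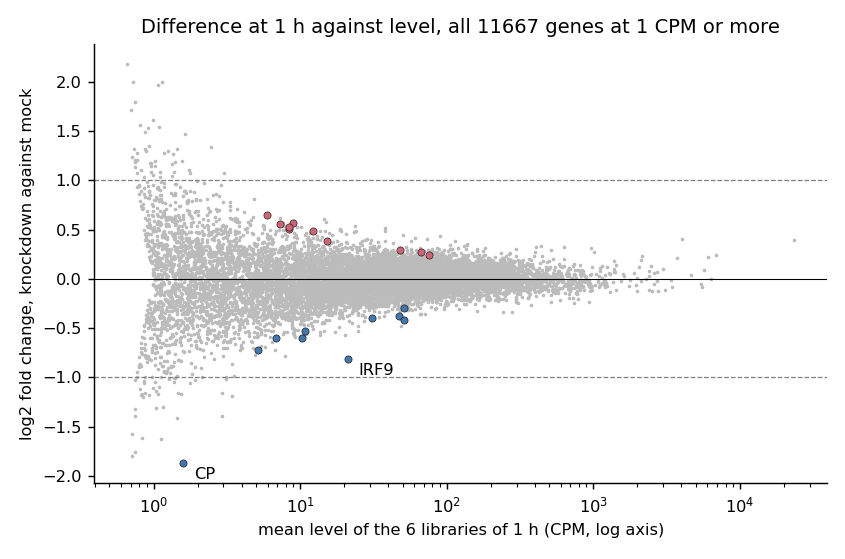
Log2 fold change of knockdown against mock at 1 h (vertical axis) against the mean level of the 6 libraries (CPM, log axis) for the 11667 members in grey; coloured points are IRF9, CP and 18 of the 19 leading genes (red higher, blue lower in knockdown cells), and dashed lines mark 2-fold. The spread narrows as the level rises, and IRF9 at -0.81 lies below the other genes of its level.

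Past 1.5-fold there were 27 of the 9538 members, 8 higher and 19 lower, of which 26 lay at 5 to 20 CPM. The 1 member past 1.5-fold at 20 CPM or more was IRF9. In the fit of all libraries, IRF9 had the smallest p of the 9538 and the largest difference among them. Its rank by p was 2 without the 4 mock replicate 2 libraries and 3 without knockdown replicate 1, and 1 under the other alternatives. Its rank by size was 3 in limma voom, 2 with the replicate block, 10 without the 4 mock replicate 2 libraries, and 5 to 21 with 1 library of 1 h left out. TNFRSF4, which encodes the T-cell costimulatory receptor OX40, was next in size and was picked out after its values were seen. Its libraries held 6.12, 1.11 and 3.35 CPM in mock and 9.51, 5.81 and 3.18 CPM in knockdown cells, so the groups overlapped (0.81, SE 0.47, and 0.37 without mock replicate 2). Over all members the smallest p belonged to CP, which encodes the copper-carrying ferroxidase ceruloplasmin. CP held 2.45, 2.87 and 2.16 CPM in mock and 0.884, 0.849 and 0.318 CPM in knockdown cells, with no overlap (-1.87, SE 0.40, edgeR adjusted p = 0.975). At the other 3 times the difference of CP was -0.39.

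The leading genes at 1 h, named by the smallest p among members with a symbol, 5 CPM or more and no overlap, are given as values, since none was called (edgeR adjusted p = 0.9995 for each of the 19 besides IRF9). The roles given for them are those known from mammals. Of those lower in knockdown cells, BMP2, a secreted ligand of the bone morphogenetic protein pathway, held 52.1, 54.5 and 53.7 CPM in mock and 40.8, 40 and 42.2 CPM in knockdown cells (-0.38, SE 0.11). IGFBP2, which binds insulin-like growth factors, held 7.85, 8.82 and 8.18 CPM in mock and 6.12, 4.57 and 5.73 CPM in knockdown cells (-0.60, SE 0.18). The choice by small p and no overlap favours genes with little spread within each group. ALG13, a subunit of the enzyme that adds the second sugar in N-glycan assembly, held 11.2 to 13.5 CPM in mock and 7.89 to 8.49 CPM in knockdown cells (-0.60, SE 0.16). The others included TBC1D19 (-0.72), ADCK1 (-0.52), the glycogen phosphorylase gene PYGL (-0.42), LANCL2 (-0.39) and GEMIN2 of the SMN complex (-0.30). For PYGL the mock value rested on replicate 2, at 72.7 CPM against 51.3 and 52.0 CPM in the other mock libraries, and the difference was -0.23 without it.

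Of those higher in knockdown cells, ALKBH1, a demethylase of nucleic acids, held 10.7, 9.27 and 10.6 CPM in mock and 16.4, 13 and 13.5 CPM in knockdown cells (0.49, SE 0.14). HOXC9, a homeobox factor of body-axis patterning, held 6.27 to 7.73 CPM in mock and 9.34 to 13.2 CPM in knockdown cells (0.56, SE 0.18), with knockdown replicate 1 the highest in both genes. RGMB, a co-receptor of bone morphogenetic proteins, held 6.19, 8.16 and 6.32 CPM in mock and 10.9, 10.4 and 8.59 CPM in knockdown cells (0.53, SE 0.19). GINS3 of the replicative helicase was at 53.8 to 65.2 CPM in mock and 71.7 to 74.2 CPM in knockdown cells (0.27, SE 0.09). The others were SLC29A4, a monoamine transporter (0.64), LEKR1 (0.56), GRAMD2 (0.51), the centromere gene CENPP (0.39), FBXL18 (0.29) and the microtubule-severing gene SPAST (0.25).

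**Figure D3:**
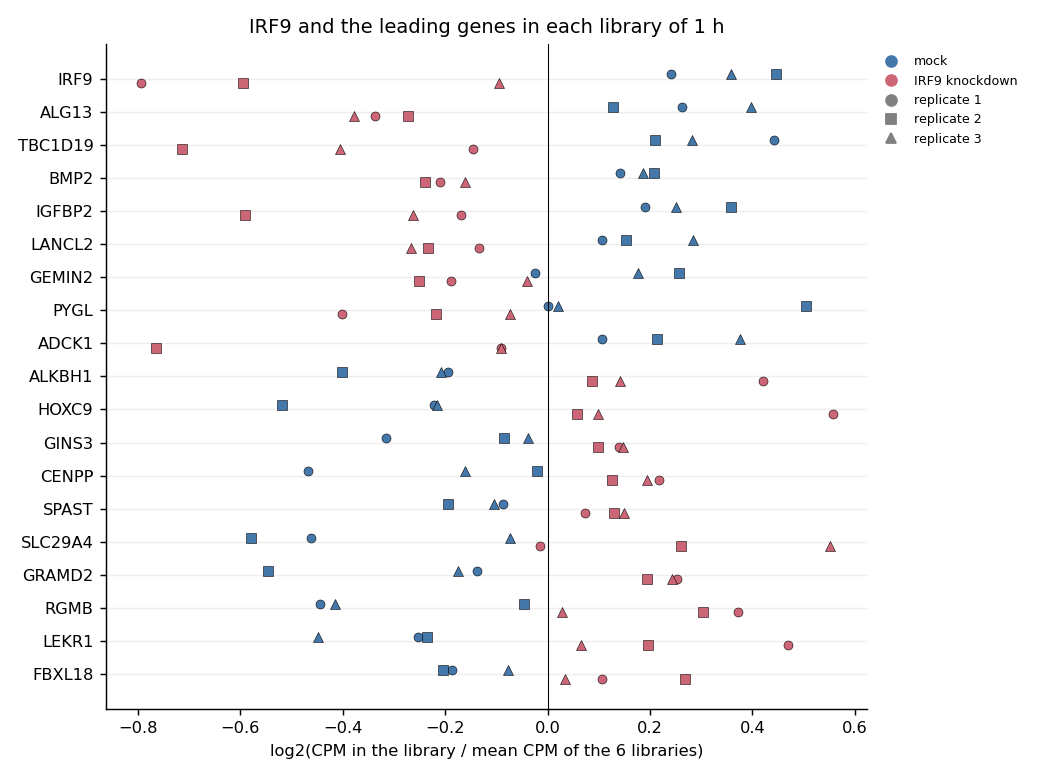
Log2 ratio of each library's CPM to the mean of the 6 libraries of 1 h (horizontal axis) for IRF9 and 18 of the 19 leading genes; blue is mock, red is knockdown, and marker shapes are replicates. The genes were chosen for having groups that do not overlap; knockdown replicate 3 is the knockdown library nearest to mock for IRF9.

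These 19 genes were chosen on the libraries of 1 h, so the other times were the libraries that could test them. Over the other 3 times, 17 of the 19 had the same sign on average and 11 had it at each time, but the median size was 0.122 (log2) against 0.487 at 1 h, and edgeR called 0 of them. At an unadjusted p under 0.05 were 4 of the 19, against 7.77% of all 13000 genes over those times, whose libraries the test took as independent. ALKBH1 and HOXC9 were at 0.03 and 0.01 there, and CENPP was at -0.07. The same-sign share is read against all members at 5 CPM or more, of which 72% had the same sign at 1 h and at the other times, with Pearson's r = 0.539 and Spearman's rho = 0.565 over 9538 genes, which are not independent replicates. No library is shared, but the mock replicate 2 libraries deviated alike at all times, with correlations of 0.53 to 0.636 between the 1 h library and the other 3. Without the 4 mock replicate 2 libraries the share was 46.4%, r was -0.0117 and rho -0.0529. The counts of 17 and 11 of the 19 are those with these libraries in the fit, and they are not given without them. For the count at each time, no share over all members is given.

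**Figure D4:**
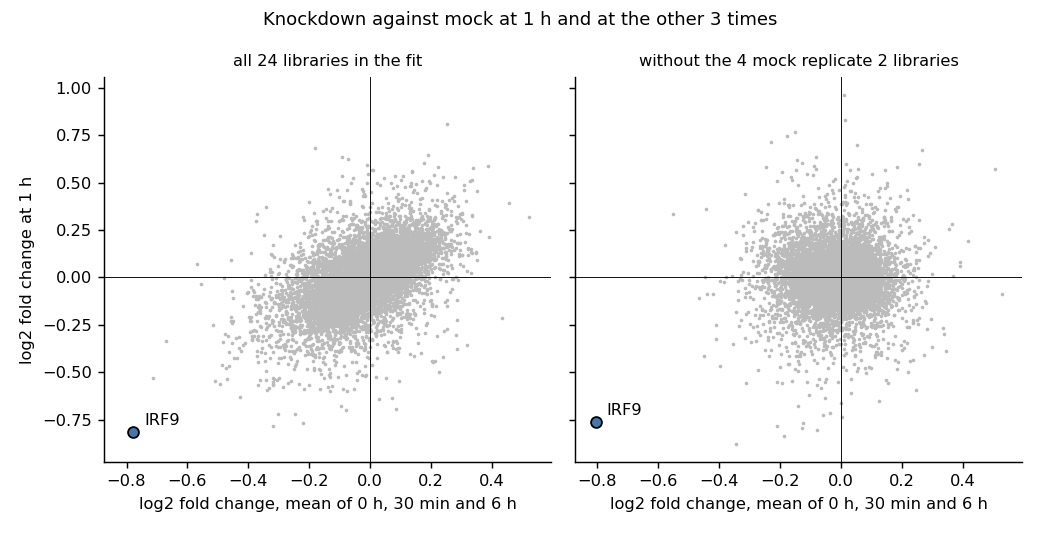
Log2 fold change of knockdown against mock at 1 h (vertical axis) against its mean over 0 h, 30 min and 6 h (horizontal axis) for the 9538 members at 5 CPM or more, in the fit of all libraries (left) and without the 4 mock replicate 2 libraries (right). Pearson's r is 0.539 in the left panel and -0.0117 in the right one, and IRF9 lies apart at the lower left in both.

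The pathway around IRF9 was followed from sensor to target gene. The lists were of textbook members, and lists with at least 8 tested genes are given by their counts or medians beside the median of all 13000 genes tested, 0.00102 (log2). edgeR called 0 genes in each of the 24 lists with a tested gene, so the lists are described by values; the muscle and erythroid markers had 0 genes tested. STAT2, IFNAR1, IFNAR2, JAK1, TYK2, IRF1, IRF7, IFIH1, TLR3, IFIT5, HELZ2 and COL1A2 were picked after their values were seen, for their place in the pathway or their level across libraries. CCL4, IL8L2, TGFB1, IRF5 and IRF8 were also picked outside the naming rule, with their values known.

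Among 28 sensors and adaptors of foreign nucleic acid, the median was 0.09, and 0.0048 without mock replicate 2. TLR3, the endosomal receptor of double-stranded RNA, held 4.61, 6.33 and 4.68 CPM in mock and 7.15, 7.51 and 6.04 CPM in knockdown cells, and the ranges overlapped (0.40, SE 0.26). IFIH1, which encodes MDA5, overlapped between groups, at 10.3 to 12.8 CPM in mock and 10.9 to 13.7 CPM in knockdown cells (0.10, SE 0.17). TICAM1, the adaptor of TLR3, was at 44.3 to 55.7 CPM in mock and 49.4 to 68.9 CPM in knockdown cells (0.23, SE 0.15, and 0.13 without mock replicate 2). The antiviral zinc finger gene ZC3HAV1 was the member with the smallest p, at 27.3, 28.9 and 27.2 CPM in mock and 21.5, 21.5 and 22.5 CPM in knockdown cells, without overlap (-0.35, SE 0.16, edgeR adjusted p = 0.9995). NLRX1, a mitochondrial regulator of this signalling, was also without overlap (-0.40, SE 0.19, and -0.24 without mock replicate 2).

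Of the 33 interferon, cytokine and chemokine genes in the files, 16 were members and 10 had no reads. These 10, IFNA3, IFNW1, IFNG, IFNL3A, IL6, IL12A, CCL5, CCL17, CCL19 and CXCL13, had 0 counts in all 6 libraries, where 3 counts correspond to 0.191 to 0.223 CPM. Such floors cover counting error only, and interferon genes with near-identical copies may lose reads that align to more than 1 place. Of the 19 cytokine genes tested the median was -0.04, and 0.11 without mock replicate 2. The chemokine genes CCL4 (271 to 464 CPM in mock, 307 to 409 CPM in knockdown cells) and CXCL12 (132 to 159 CPM and 128 to 154 CPM) overlapped between groups, as did IL8L2 (92.8 to 157 CPM and 75.3 to 202 CPM) and TGFB1 (135 to 153 CPM and 128 to 147 CPM). TGFB2, at a low level, was without overlap. It lay at 0.327 to 0.743 CPM in mock and 0.827 to 1.31 CPM in knockdown cells (0.92, edgeR unadjusted p = 0.234).

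Of the 34 tested genes of the receptor and its signalling chain, 1 had an unadjusted edgeR p under 0.05, and it was IRF9. Over all 13000 genes tested the share was 2.32%. IFNAR1 held 64.3, 64.0 and 68.0 CPM in mock and 67.4, 71.0 and 71.5 CPM in knockdown cells (0.10, SE 0.09, interval -0.10 to 0.29). IFNAR2 was at 27.4 to 38.3 CPM in mock and 35.5 to 39.1 CPM in knockdown cells (0.16, SE 0.12, and 0.28 without mock replicate 2). The receptor kinases JAK1 (0.02, SE 0.09) and TYK2 (-0.01, SE 0.17) were close to 0, and both changed sign without mock replicate 2, to -0.063 and 0.11. STAT2 is a partner of IRF9 in mammalian ISGF3. It held 9.72, 11 and 10.0 CPM in mock and 9.36, 7.83 and 10.7 CPM in knockdown cells. The difference was -0.14 (SE 0.21), and -0.086 without mock replicate 2. The ranges of the groups overlapped.

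Of the other interferon regulatory factors, IRF1 was low, at 1.94 to 3.72 CPM in mock and 2.67 to 4.13 CPM in knockdown cells (0.41, SE 0.35, and 0.25 without mock replicate 2). IRF2, which represses interferon-stimulated genes, was at 59.0 to 75.3 CPM in mock and 70.2 to 84.7 CPM in knockdown cells (0.20, SE 0.10, and 0.11 without mock replicate 2). IRF7, a driver of type I interferon transcription, was at 4.44 to 9.81 CPM in mock and 7.70 to 8.18 CPM in knockdown cells (0.03, SE 0.27), and at -0.25 without mock replicate 2. IRF8 overlapped between groups, at 35.9 to 41.5 CPM in mock and 37.5 to 43.7 CPM in knockdown cells. IRF5 lay near the floor, at 0.196 to 1.22 CPM in mock and 0.0636 to 0.522 CPM in knockdown cells. Its groups overlapped too (-1.30, edgeR unadjusted p = 0.0735). CISH, a feedback inhibitor of cytokine receptors, was without overlap, at 2.02 to 3.27 CPM in mock and 3.75 to 6.34 CPM in knockdown cells (0.71, SE 0.38). Over the 34 genes of the IRF, STAT and JAK list, 27 had intervals within 2-fold, against 10168 of all 13000 genes tested. The median of the list was 0.04, and 0.02 without mock replicate 2.

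Next came the interferon-stimulated genes, the known targets of ISGF3 in mammals. Of 45 tested, 25 were positive and 20 negative, with a median of 0.03, and of -0.04 without mock replicate 2. Intervals within 2-fold were held by 33 of the 45, against 10168 of all 13000 genes tested. MX1, RSAD2 and SAMD9L had 0 counts in all 6 libraries. IFIT5, an antiviral RNA-binding gene, held 2.88, 1.96 and 2.16 CPM in mock and 2.87, 1.83 and 1.21 CPM in knockdown cells (-0.25, SE 0.32). HELZ2 held 22.2, 11.3 and 11.3 CPM in mock and 16.1, 18.8 and 12.9 CPM in knockdown cells (0.09, SE 0.22, and -0.077 without mock replicate 2). Both overlapped between groups. Of the 45, 4 had an unadjusted edgeR p under 0.05, the targeted gene among them, against 2.32% of all 13000 genes tested. IRF9 and ZC3HAV1 were lower and CMPK2 and TAP2 higher in knockdown cells. CMPK2, a mitochondrial nucleotide kinase, held 1.15, 1.37 and 1.49 CPM in mock and 1.84, 2.55 and 2.99 CPM in knockdown cells (0.88, SE 0.36), and it was at -0.01 over the other 3 times. TAP2, a peptide transporter of antigen presentation, was at 1.34 to 2.45 CPM in mock and 2.81 to 4.01 CPM in knockdown cells (0.71, SE 0.32), and at 0.14 over the other times. The list shares IRF9 with the IRF, STAT and JAK list and ZC3HAV1 with the sensors.

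Among 36 targets and regulators of NF-kB the median was 0.06, and 0.05 without mock replicate 2. NFKBIZ, a nuclear coregulator of NF-kB, was at 11.1 to 14.8 CPM in mock and 13.6 to 21.1 CPM in knockdown cells (0.46, SE 0.18). TAB1, which activates the kinase TAK1, was at 11.5 to 13.6 CPM in mock and 14.7 to 16.2 CPM in knockdown cells, without overlap (0.32, SE 0.14). Neither passed the test over all genes (edgeR adjusted p = 0.9995 for both).

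**Figure D5:**
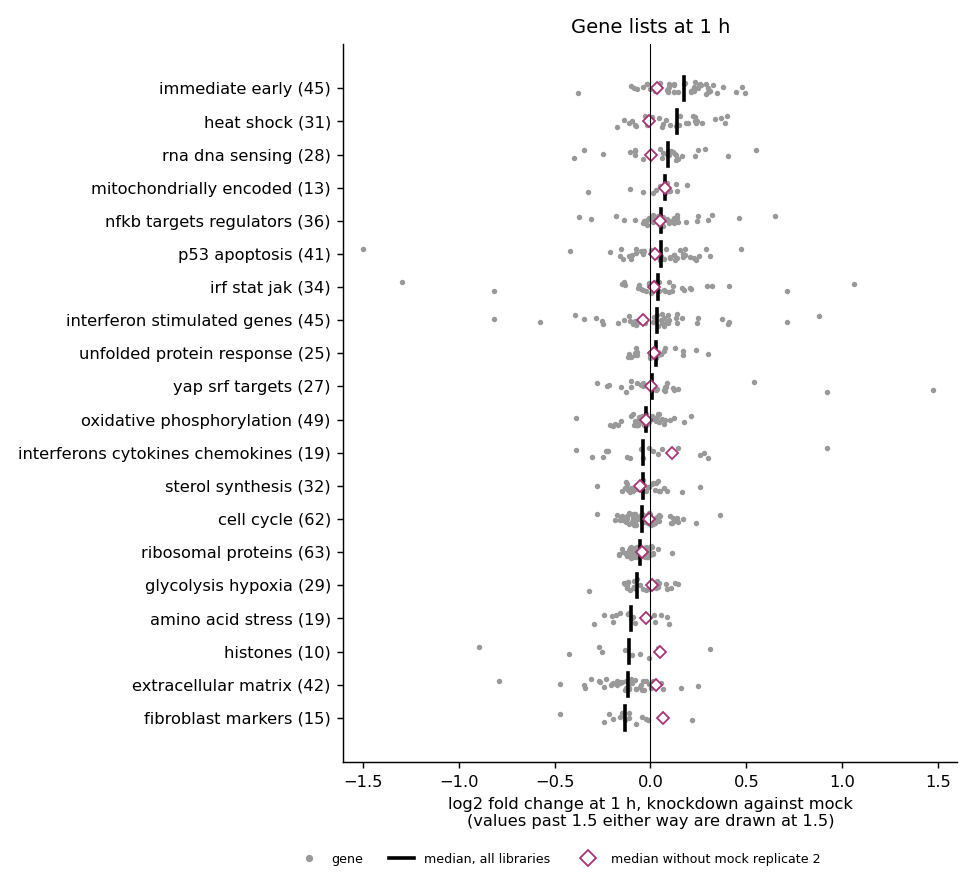
Log2 fold change of knockdown against mock at 1 h (horizontal axis) for the tested genes of each list with at least 8 of them (number in brackets); grey points are genes, black bars list medians in the fit of all libraries and open diamonds medians without mock replicate 2. Of the lists drawn, immediate early genes (0.17) and heat shock genes (0.138) have the medians farthest from 0, followed by fibroblast markers (-0.133). Without that library the 3 medians are 0.04, -0.01 and 0.06.

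Several list medians shifted when mock replicate 2 was left out. Of 45 immediate early genes, the first to be transcribed after a stimulus, 37 were positive with a median of 0.17, and 30 with a median of 0.04 without mock replicate 2. EGR1, a zinc finger factor of this class, held 132, 66.2 and 98.1 CPM in mock and 137, 139 and 109 CPM in knockdown cells (0.38, SE 0.24), and the low value was that of mock replicate 2, without which the difference was 0.16. KLF2 had the same pattern, at 19.9, 10.1 and 16.7 CPM in mock and 20.7 to 22.8 CPM in knockdown cells (0.49, SE 0.27, and 0.26 without it). BTG2, an antiproliferative gene, was without overlap at 32.8 to 38.5 CPM in mock and 41.3 to 45.0 CPM in knockdown cells (0.29, SE 0.12).

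Of 42 genes of the extracellular matrix, 35 were negative with a median of -0.12, whereas 30 were positive with a median of 0.03 without mock replicate 2. COL1A2, a chain of type I collagen, held 194, 390 and 238 CPM in mock and 215, 226 and 302 CPM in knockdown cells (-0.15, SE 0.26), and 0.20 without that library. Its highest values were those of mock replicate 2 and knockdown replicate 3, the libraries that also lay highest on the first principal component. The 15 fibroblast markers, which share members with this list, had 14 negative values and a median of -0.13, and 0.06 without mock replicate 2. Their summed level ran from 6160 to 7890 CPM in mock and from 6310 to 6790 CPM in knockdown cells.

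Of 31 heat shock genes, 23 were positive with a median of 0.14, and 14 with a median of -0.01 without mock replicate 2. HSPA8, the constitutive Hsc70 chaperone gene, held 7410, 4320 and 7270 CPM in mock and 8190, 7890 and 6390 CPM in knockdown cells (0.24, SE 0.19, and 0.030 without mock replicate 2). HSF3, an avian heat shock factor, was without overlap at 30.7 to 41.0 CPM in mock and 41.1 to 54.7 CPM in knockdown cells (0.37, SE 0.14, and 0.24 without mock replicate 2), and the ranges nearly touched. By the rule that names 5 genes each way, mock replicate 2 was highest against the other 5 libraries in APCDD1, CAMK2A, ISM1, LOC107054844 and PODN and lowest in GPATCH3, HSPA2, HSPB9, LOC107049468 and RSRP1. APCDD1, an inhibitor of Wnt signalling, held 34.4, 94.0 and 41.0 CPM in mock and 37.4, 29.8 and 54.7 CPM in knockdown cells.

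The remaining lists had medians of -0.11 to 0.07. The 63 ribosomal protein genes had 56 negative values with a median of -0.06 (-0.04 without mock replicate 2), and the median was 0.0268 without mock replicate 3. All 63 had intervals within 2-fold, against 10168 of all 13000 genes tested. The 13 mitochondrially encoded genes had a median of 0.07 (0.08 without mock replicate 2), and -0.0121 without mock replicate 3. Medians were -0.02 for 49 genes of oxidative phosphorylation, -0.05 for 62 of the cell cycle, -0.04 for 32 of sterol synthesis, -0.07 for 29 of glycolysis and hypoxia, 0.03 for 25 of the unfolded protein response, 0.0086 for 27 targets of YAP and serum response factor, 0.05 for 41 of p53 and apoptosis, -0.10 for 19 of amino acid stress and -0.11 for 10 histone genes. Without mock replicate 2, the same medians in that order were -0.02, -0.0083, -0.06, 0.0055, 0.02, 0.0039, 0.02, -0.02 and 0.05. Of these lists the members at the smallest p included ATP5I, a subunit of ATP synthase, at 32.5 to 42.2 CPM in mock and 27 to 33.3 CPM in knockdown cells (-0.39, SE 0.14), and CDKN1B, the cell cycle inhibitor p27, at 24.4 to 28.2 CPM and 27.9 to 33.2 CPM (0.24, SE 0.11). Both overlapped between groups. H2AFY of the histone list overlapped as well (-0.25, SE 0.12). ACTG2, an actin gene of the YAP and serum response factor list, was low and without overlap. It lay at 0.588 to 1.44 CPM in mock and 1.91 to 2.81 CPM in knockdown cells (1.47, SE 0.57, edgeR adjusted p = 0.9995). Over the other 3 times ACTG2 was at 0.17. BCL2A1 lay at or near the floor, at 0.149 to 0.392 CPM in mock and at most 0.0653 CPM in knockdown cells, and is given no fold.

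The last question was whether the change from 0 h to 1 h differed between the genotypes. edgeR called 0 of 13000 genes for this interaction (0%), with 137 at an unadjusted p under 0.05 (1.05%), and DESeq2 and limma voom called 0 with 152 and 136. CCN2, which encodes connective tissue growth factor, rose by 1.21 in mock (log2, SE 0.16, edgeR adjusted p = 0.000895), and its rise in knockdown cells was 1.25 (SE 0.16, adjusted p = 0.000496). CYR61, a related matricellular gene, rose by 1.07 in mock (SE 0.19, adjusted p = 0.0371), and in knockdown cells its rise was 1.06 (SE 0.18, adjusted p = 0.0309). Called higher at 1 h than at 0 h were 2 genes in mock (0.0154%) and 3 in knockdown cells (0.0231%). Genes called lower were not counted here. These tests took the libraries of 0 h and 1 h as independent, whereas same-numbered mock libraries correlated between times. The p-values of the interaction and of 1 h against 0 h may therefore be too large, and the counts too low.

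KLF6, a zinc finger factor induced by growth signals, was called in knockdown cells (0.60, SE 0.10, edgeR adjusted p = 0.0107) and not in mock cells (0.46, SE 0.10, adjusted p = 0.232). That difference between genotypes did not pass its own test (interaction 0.14, SE 0.13, edgeR adjusted p = 1). At 1 h itself, CCN2 held 634, 527 and 589 CPM in mock and 624, 634 and 648 CPM in knockdown cells, CYR61 663 to 860 CPM and 824 to 891 CPM, and KLF6 211 to 221 CPM and 225 to 252 CPM. The differences between genotypes were 0.12 (SE 0.15), 0.14 (SE 0.18) and 0.12 (SE 0.09), none past the test, and those of CCN2 and CYR61 were 0.057 and 0.044 without mock replicate 2.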

How the data were processed

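Poly(A)-selected, directional RNA libraries of chicken DF1 cells were sequenced. The authors deposited whole-number read counts per gene, 1 table per library, with no normalization. The submitters' processing notes name STAR 2.7.11b and HTSeq 2.0.5, build GRCg7b, FastQC 0.12.1 with Trim Galore 0.6.10, and edgeR 3.40.2. Whether HTSeq counted by strand is not stated, so overlapping and antisense genes are uncertain. The 5 summary lines stayed out of library sizes and tests; at 1 h, reads in no gene made up 16.3 to 18.8%, ambiguous reads 1.18 to 1.27% and reads not uniquely aligned 3.43 to 3.88%.

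Of 25466 gene rows, 13000 passed filterByExpr. After TMM scaling, edgeR 4.0.16 in R 4.3.3 (glmQLFit, glmQLFTest) took the 24 libraries in 1 model of 8 group means. Residual degrees of freedom were 16, and the common biological variation was 14%. Two-sided p-values were adjusted over all 13000 genes (Benjamini-Hochberg), with calls at an adjusted p under 0.05. The step was tested on simulated data of independent libraries, with no outlying library and with differences of 2-fold or more. That test does not cover smaller differences or a library such as mock replicate 2. CPM values were computed here from the filtered library sizes and TMM factors. DESeq2 1.42.0, limma voom (limma 3.58.1) and other settings were alternatives. Gene identifiers matched the supplied GRCg7b table by symbol for 25216 and by locus tag for 13, and 237 did not match. Pairs of replicates at 1 h differed by more than sampling noise (chi-square per degree of freedom 4.18 to 48.6), so each was counted.

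The members, the naming rule and the 26 gene lists were chosen with earlier results of these data known. The rule named IRF9, the 10 members with the smallest p in each direction (a symbol, at least 5 CPM in the higher group, no overlap of libraries), the 3 tested genes with the smallest p of each list, 5 genes each way for mock replicate 2 (at least 20 CPM in the higher, with a pseudocount of 1 CPM), and CCN2, CYR61 and KLF6. CP, TNFRSF4 and genes described as picked out were named after their values were seen. Of the genes so named, 1 that leads at 1 h is not reported here.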

Additional observations from a re-analysis of the deposited data

How the results depend on the processing

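Under 14 alternatives (fits of the 2 groups alone, DESeq2 size factors, DESeq2, limma voom, no low-count filter, members only, the replicate block, without the 4 mock replicate 2 libraries, and each library of 1 h left out) 0 genes were called at 1 h. The count at an unadjusted p under 0.05 ran from 193 in the 2 groups alone to 858 without mock replicate 1 and 563 without knockdown replicate 3, against 302. IRF9 stayed between -1.05 (without knockdown replicate 3) and -0.68 (without knockdown replicate 1). Members at 5 CPM or more past 2-fold numbered 5 without mock replicate 1 and 7 without knockdown replicate 3, against 0. Calls over the other 3 times were 1, but 9 with no low-count filter; the cause was not tested. 0 genes were called for the interaction under each of its 20 alternatives.

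Deviations of same-numbered libraries of 1 h had correlations of 0.276, -0.267 and -0.00719, without a common sign. With 3 libraries per group, these values cannot decide whether the numbers pair the libraries. Mock replicate 2 correlated best with knockdown replicate 3 (0.467). With the replicate block, 0 genes were called (427 at an unadjusted p under 0.05), IRF9 was at -0.82 and TYK2 at 0.0052.

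Of 1422 values of named genes under alternatives, 38 changed sign, none of them called. Without the 4 mock replicate 2 libraries, the log2 differences were 0.11 for APCDD1, 0.018 for CAMK2A, 0.20 for COL1A2, -0.077 for HELZ2, -0.011 for HSPA2, -0.25 for IRF7, 0.30 for ISM1, -0.063 for JAK1, -0.030 for LOC107049468, 0.23 for PODN, 0.0063 for SPARC, 0.0087 for TGFB3, 0.064 for TWIST2 and 0.11 for TYK2. Leaving out 1 library of 1 h at a time gave -0.76 to 0.11 for APCDD1, -0.52 to 0.037 for ATP8, -0.87 to 0.018 for CAMK2A, -0.35 to 0.20 for COL1A2, -0.15 to 0.0022 for DNAJB11, -0.076 to 0.49 for HELZ2, -0.011 to 0.84 for HSPA2, -0.62 to 0.0033 for IFIT5, -0.25 to 0.24 for IRF7, -0.85 to 0.30 for ISM1, -0.063 to 0.12 for JAK1, -0.030 to 0.59 for LOC107049468, -0.82 to 0.23 for PODN, -0.25 to 0.0064 for SPARC, -0.42 to 0.0086 for TGFB3, -0.42 to 0.064 for TWIST2 and -0.17 to 0.11 for TYK2. The cause was not tested.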

Other observations

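Of the 19 leading genes besides IRF9, 2 pairs lay close together in the genome. How often other sets of members hold such pairs was not counted. ALKBH1 (0.49, higher in knockdown cells) and ADCK1 (-0.52, lower) were 19166 bases apart on chromosome 5 (GRCg7b), and SLIRP, which lies wholly between them, was at -0.05. SLC29A4 (0.64) and FBXL18 (0.29) were 53167 bases apart on chromosome 14, and TNRC18 between them was at 0.04. None of these genes was called.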
